A study of Arabidopsis thaliana with 48 samples.

Results

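The 10 genes described here encode the enzymes that open and take apart the starch granules of Arabidopsis thaliana leaf chloroplasts, together with the transporter and the cytosolic enzyme that handle the maltose released. They were chosen by gene name, with no measured value in the rule, though earlier results of these data were known at the time. All 10 were found among the 33602 loci of the deposited count tables. They are the dikinases GWD1 (AT1G10760, also called SEX1) and PWD (AT5G26570), the phosphatases SEX4 (AT3G52180) and LSF2 (AT3G10940), their relative LSF1 (AT3G01510), the alpha-amylase AMY3 (AT1G69830), the debranching enzyme ISA3 (AT4G09020), the disproportionating enzymes DPE1 (AT5G64860) and DPE2 (AT2G40840), and the maltose transporter MEX1 (AT5G17520). PWD and SEX4 each have 2 transcripts in the tables, which were summed, and the other 8 genes have 1. In RefSeq assembly TAIR10.1, GWD1 spans chr1:3580830-3590928 (minus strand, 34 exons), AMY3 chr1:26288228-26293173 (minus, 13 exons), DPE2 chr2:17044932-17051062 (plus, 23 exons) and ISA3 chr4:5783909-5789100 (plus, 24 exons). Chromosome 3 holds LSF1 at chr3:198322-201810 (10 exons), LSF2 at chr3:3422034-3423455 (4 exons) and SEX4 at chr3:19349600-19353728 (12 exons), all on the minus strand. Chromosome 5 holds MEX1 at chr5:5772568-5775417 (minus, 8 exons), PWD at chr5:9261479-9267732 (plus, 19 exons) and DPE1 at chr5:25925173-25928879 (minus, 16 exons).

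Leaves lay down starch in the chloroplast by day and break it down at night to feed respiration and growth. GWD1 and then PWD put phosphate on the glucan chains at the granule surface, which opens it to hydrolysis, and SEX4 and LSF2 take the phosphate off again, while LSF1 is described as a non-catalytic relative that binds beta-amylases at the granule. Beta-amylases release maltose, ISA3 removes branches, AMY3 cuts within chains, DPE1 recycles maltotriose, MEX1 exports maltose from the chloroplast, and DPE2 uses it in the cytosol.

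RNA came from leaves of the ecotype Columbia, with no mutant or transgene in any group. There were 12 groups of 2 replicates. The step groups, labelled day 0.6 and day 2.57, held plants moved to light 700 after growth at 100 µmol photons per square metre per second (light 100). Per the protocol the step lasted about 20 h, so the time that the day 2.57 plants spent at light 700 is not known. The 4 growth light groups stayed at light 100, 250, 450 or 700 and were all labelled day 0.583. The 6 diurnal groups grew at light 250 and were sampled at days 0.083, 0.25, 0.375, 0.625, 0.75 and 0.916. Plants were grown for 6 weeks, the last 2 weeks at the light levels, set by shade cloth for the 3 lower ones, and the step followed at the end of that time for the step groups, with a 10 h photoperiod, days of 23 °C and nights of 5 °C. They stood in 2 controlled environment rooms, of which the protocol calls one a low night temperature room, and the labels do not give the room of a group. The zero point of the day labels is not stated, so they serve as names. RNA of 4 to 6 plants per group was extracted separately and combined at random into the 2 replicates, so p-values measure the spread between pools of plants.

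Total counts per replicate ran from 20418095 to 36331053, and the lowest count of any of the 10 genes in any replicate was 814. Leaf markers summed to between 17427 and 48763 CPM, counts relative to the TMM-scaled library total, per replicate, against 1.13 to 37.6 CPM for the root markers, 0.843 to 2.56 CPM for the flower markers and 0 to 0.221 CPM for the seed markers. Of 8 clock genes, 8 passed the test across the 6 diurnal groups, which 60.0% of all loci tested passed. CCA1, a clock gene known to peak near dawn, had its highest mean, 878 CPM, at day 0.25. Replicates of diurnal day 0.916 differed from each other by 84.6 times the variance of independent counts, against 5.76 to 29.7 times for the other 11 groups. The 2 lanes of a library gave 1.91 to 2.00 on this scale, where independent counts would give 1. In bulk leaf RNA, fewer cells of a type and less RNA per cell cannot be told apart.

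The 150 bases before the annotated start of 6 of the genes are printed because these genes moved together through the day by different amounts. DPE1, DPE2 and AMY3 had the widest diurnal range and MEX1 the narrowest, and PWD and ISA3 were added after the motif search found an evening element close to their start. The sequences were read 5′ to 3′ on the gene's strand from RefSeq assembly TAIR10.1. They are chr5:25928880-25929029 (minus strand) for DPE1, chr2:17044782-17044931 (plus) for DPE2, chr1:26293174-26293323 (minus) for AMY3, chr5:5775418-5775567 (minus) for MEX1, chr5:9261329-9261478 (plus) for PWD and chr4:5783759-5783908 (plus) for ISA3. Capitals mark the G-boxes of DPE1, the CCA1 binding site of DPE2 and the evening elements of PWD and ISA3. The window of DPE2 also lies in AT2G40830 and that of MEX1 in AT5G17522.
DPE1: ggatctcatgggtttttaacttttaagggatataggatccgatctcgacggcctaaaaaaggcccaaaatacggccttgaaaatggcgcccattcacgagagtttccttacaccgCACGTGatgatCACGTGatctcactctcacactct
DPE2: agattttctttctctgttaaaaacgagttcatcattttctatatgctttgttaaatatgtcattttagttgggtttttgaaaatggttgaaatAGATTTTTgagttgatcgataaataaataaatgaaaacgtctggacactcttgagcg
AMY3: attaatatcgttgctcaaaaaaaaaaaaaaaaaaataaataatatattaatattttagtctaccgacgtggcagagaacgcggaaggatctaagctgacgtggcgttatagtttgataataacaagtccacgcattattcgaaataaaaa
MEX1: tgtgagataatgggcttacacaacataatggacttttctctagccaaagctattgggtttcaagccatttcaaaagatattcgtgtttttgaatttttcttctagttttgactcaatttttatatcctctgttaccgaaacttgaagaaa
PWD: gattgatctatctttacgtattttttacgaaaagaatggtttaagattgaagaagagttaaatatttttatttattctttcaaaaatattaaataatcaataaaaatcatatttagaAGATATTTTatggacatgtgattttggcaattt
ISA3: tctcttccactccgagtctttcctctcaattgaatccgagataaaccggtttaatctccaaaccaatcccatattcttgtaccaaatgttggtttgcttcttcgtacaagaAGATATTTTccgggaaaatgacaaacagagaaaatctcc

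Motifs known from clock, light and sugar responses were searched by their letters on either strand of the 300 and the 1000 bases before the start. Shares of all genes are shares of the 27443 annotated protein-coding genes on the nuclear chromosomes. The evening element AAAATATCT lay within 300 bases of PWD and ISA3, 2 of the 10 genes, and of 2.79% of all genes. In PWD it spans bases -33 to -25 and in ISA3 bases -39 to -31 from the start. Within 1000 bases GWD1 had one as well, at bases -452 to -444, so that 3 of 10 held it against 7.24% of all genes. The CCA1 binding site AAAAATCT lay within 300 bases of PWD and DPE2 (7.94% of all genes) and within 1000 bases of 4 of 10 (21.1%).

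The G-box CACGTG occurred within 300 bases of LSF1 and DPE1 (7.09% of all genes) and within 1000 bases of 3 of 10 (14.8%). DPE1 carries a pair of G-boxes close together, at bases -35 to -30 and -24 to -19. The I-box core GATAAG was within 300 bases of 0 of 10 genes (14.5% of all genes) and within 1000 bases of 4 of 10 (40.6%). The sugar-repressive element TTATCC was within 300 bases of GWD1 and ISA3 (14.7%) and within 1000 bases of 4 of 10 (38.7%). AMY3 had only an I-box core within 1000 bases, MEX1 had none of the 5 motifs, and no pair of matches overlapped in these genes. The letters are a description of these windows and do not show that a factor binds there.

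**Figure D1:**
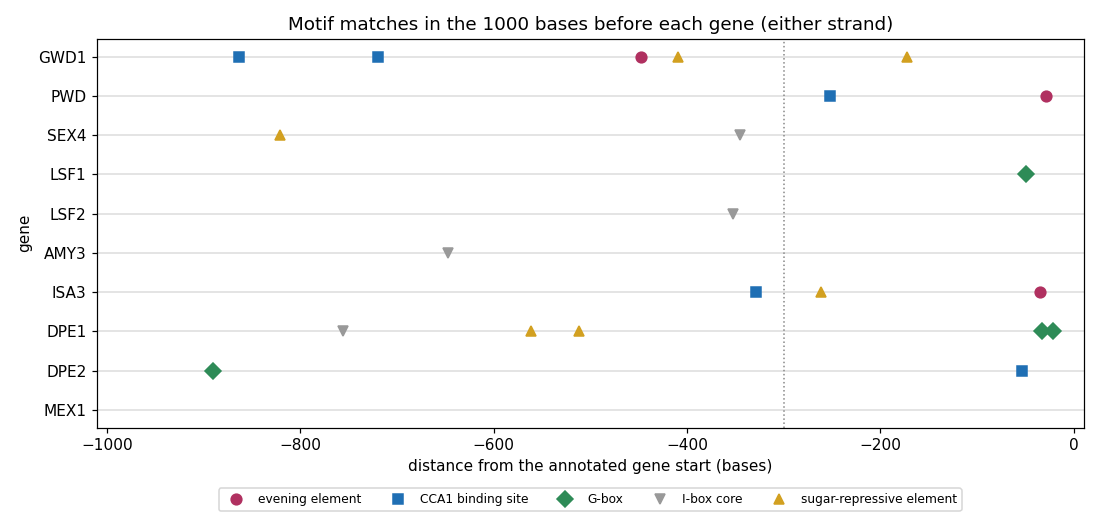
Positions of 5 motifs in the 1000 bases before the annotated start of each of the 10 genes (rows), on either strand; the x axis is the distance from the start in bases, and the dotted line stands at 300 bases. The evening elements of PWD and ISA3, the G-boxes of LSF1 and DPE1 and the CCA1 binding site of DPE2 lie closest to the start, and MEX1 has no match.

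Per kilobase of transcript, SEX4 and GWD1 stood highest, with 258 and 251 CPM per kb as the mean of the 12 groups. They were followed by DPE2 at 156, ISA3 at 145, PWD at 128 and AMY3 at 107 CPM per kb, and then by LSF2 at 61.5, DPE1 at 48.3, MEX1 at 44.0 and LSF1 at 22.0 CPM per kb. The range over replicates was 121 to 470 CPM per kb for SEX4 and 146 to 362 CPM per kb for GWD1, and each gene's range overlapped that of its neighbour in this order. SEX4 and PWD each sum 2 transcripts of similar count, the first with 53.3% to 56.7% for SEX4 and 50.8% to 52.7% for PWD. Whether reads shared by both transcripts were counted for each is not known, so the places of SEX4 and PWD in this order are uncertain.

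The diurnal groups show how the transcripts of these genes ran through the day at light 250. All 10 were high at days 0.625 and 0.75 and low at the other 4 time points. For 10 of 10 genes, every replicate of days 0.625 and 0.75 lay above every replicate of the other 4 days, a pattern that 9.02% of the 20958 loci tested had. All 10 passed edgeR's quasi-likelihood F test across the 6 time points with Benjamini-Hochberg adjustment over all loci, which 60.0% of loci passed. The highest adjusted p among them was 0.00454, for LSF1. The widest log2 difference between any pair of time points ran from 0.64 for MEX1 to 1.64 for DPE1, with a median of 1.15 against 0.85 over all loci tested. The lowest mean was at day 0.375 for 8 of the 10 genes, all but GWD1 and LSF1, and for 20.1% of loci.

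**Figure D2:**
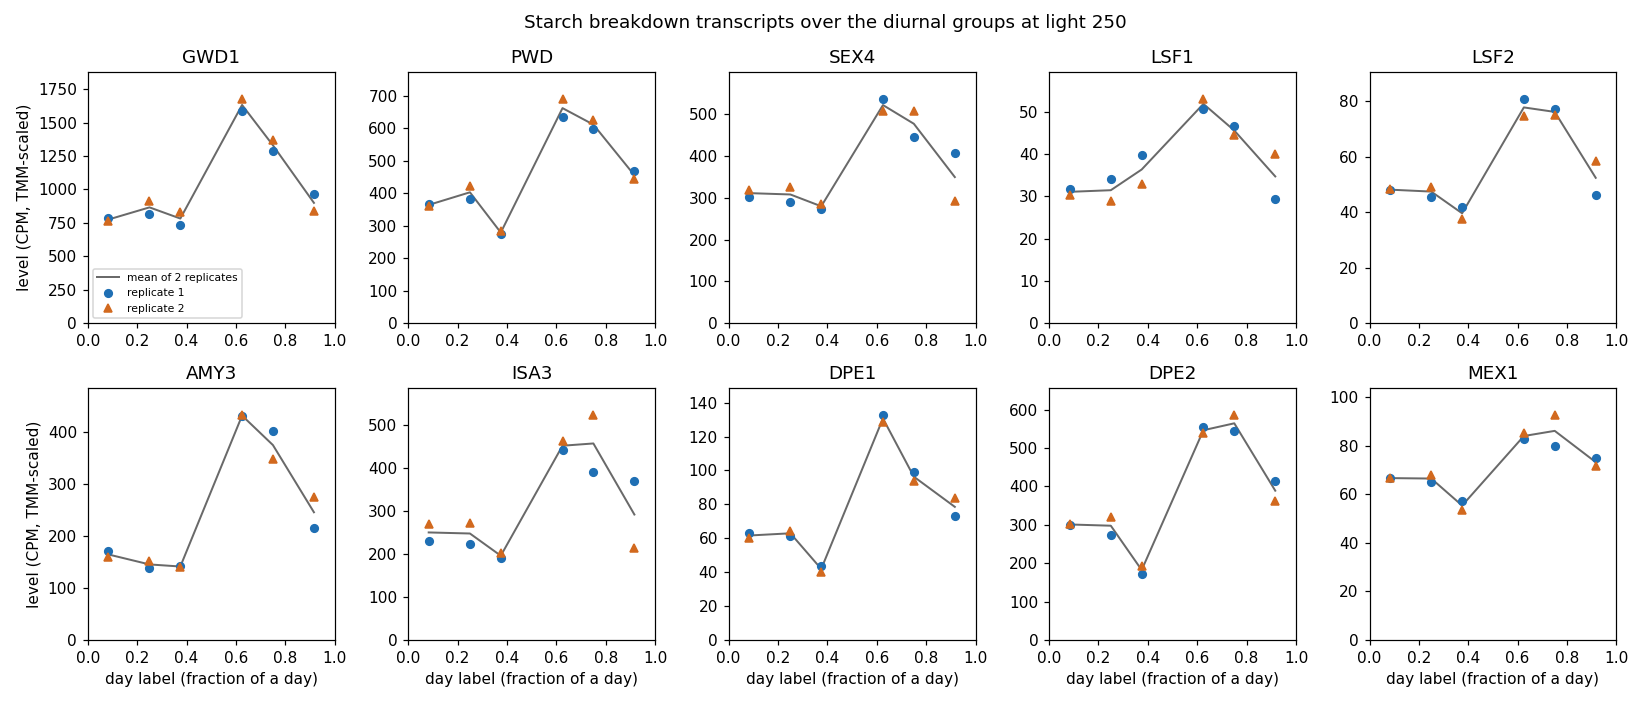
Level of each of the 10 genes in CPM (y axis, from 0) against the day label of the 6 diurnal groups at light 250 (x axis); circles and triangles are replicates 1 and 2 and the line joins their means. In every panel the 4 points of days 0.625 and 0.75 lie above the other 8, and the drop after day 0.25 passed the test for DPE1, DPE2 and PWD.

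The dikinases act first at the granule, and both were high at days 0.625 and 0.75 and low before. GWD1 had 785 and 766 CPM at day 0.083, 820.5 and 912 at day 0.25, 736 and 830.0 at day 0.375, 1585 and 1677 at day 0.625, 1287 and 1372 at day 0.75, and 964 and 836 at day 0.916. Its 4 replicates of days 0.625 and 0.75 started at 1287 CPM, above the 964 CPM that was the highest of the other 8. PWD had 367 and 361 CPM at day 0.083, 384 and 422 at day 0.25, 276 and 283 at day 0.375, 633 and 690.4 at day 0.625, 596 and 626 at day 0.75, and 467 and 444 at day 0.916. Both replicates of PWD at day 0.375 lay below all others of the day. From day 0.375 to day 0.625 the log2 change was 1.24 ± 0.10 for PWD and 1.06 ± 0.12 for GWD1 (SE, n = 2 each, edgeR adjusted p 4.75e-06 and 5.77e-05).

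The phosphatases SEX4 and LSF2 followed the same course, and their changes were not tested against those of the dikinases. SEX4 had 302 and 319 CPM at day 0.083, 289 and 325 at day 0.25, 273 and 286 at day 0.375, 535 and 506 at day 0.625, 445 and 507 at day 0.75, and 406 and 292 at day 0.916. The groups of days 0.625 and 0.75 cleared the rest narrowly, since replicate 1 of day 0.916 stood at 406 CPM and replicate 1 of day 0.75 at 445 CPM. LSF2 had 47.8 and 48.4 CPM at day 0.083, 45.6 and 49.2 at day 0.25, 41.7 and 37.5 at day 0.375, 80.8 and 74.6 at day 0.625, 77.0 and 75.1 at day 0.75, and 46.4 and 58.4 at day 0.916. SEX4 rose by a log2 change of 0.90 ± 0.15 and LSF2 by 0.97 ± 0.11 between days 0.375 and 0.625 (edgeR adjusted p 0.000638 and 6.16e-05). SEX4 shares short, less similar stretches with AT3G52535 (133 bases at 88.72%) and AT3G52526 (104 bases at 86.54%).

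LSF1 had the narrowest difference between any pair of time points after MEX1, at 0.74 on the log2 scale, and its lowest mean was not at day 0.375. It had 31.8 and 30.4 CPM at day 0.083, 34.0 and 28.9 at day 0.25, 39.8 and 32.9 at day 0.375, 50.7 and 53.1 at day 0.625, 46.7 and 44.5 at day 0.75, and 29.4 and 40.1 at day 0.916. Its log2 change of day 0.625 over day 0.375 was 0.51 ± 0.15 (edgeR adjusted p 0.0168). That call was lost without replicate 2 of day 0.375 (log2 change 0.37, adjusted p 0.142) and without either replicate of day 0.625 (adjusted p 0.0572 and 0.0843). LSF1 overlaps CA1 (AT3G01500), a chloroplast carbonic anhydrase, by 343 bases on the same strand, and reads from that stretch could be counted to either gene.

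Of the hydrolases, AMY3 had the larger diurnal range. AMY3 had 171 and 159 CPM at day 0.083, 139 and 152 at day 0.25, 142 and 141 at day 0.375, 432 and 433 at day 0.625, 402 and 349 at day 0.75, and 216 and 276 at day 0.916. It had at most 171 CPM in all 6 replicates of the first 3 time points and was at least 349 CPM in those of days 0.625 and 0.75. ISA3 had 230.4 and 269 CPM at day 0.083, 222 and 272 at day 0.25, 190 and 201 at day 0.375, 441 and 461 at day 0.625, 391 and 522 at day 0.75, and 369 and 214 at day 0.916. Its replicates of day 0.916 were the most unequal of these pairs, and replicate 1 came within reach of the 391 CPM at day 0.75. Day 0.625 over day 0.375 gave a log2 change of 1.61 ± 0.13 for AMY3 and 1.20 ± 0.23 for ISA3 (edgeR adjusted p 3.93e-06 and 0.00146).

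The disproportionating enzymes fell most at day 0.375 over day 0.25 and, with AMY3, had the widest difference between any pair of time points. DPE1 had 63.1 and 60.1 CPM at day 0.083, 61.6 and 64.3 at day 0.25, 43.9 and 39.9 at day 0.375, 133 and 129 at day 0.625, 98.9 and 93.7 at day 0.75, and 73.2 and 83.9 at day 0.916. Its mean at day 0.625 was 3.12-fold the mean at day 0.375. DPE2 had 300.5 and 301 CPM at day 0.083, 274 and 321 at day 0.25, 171 and 193 at day 0.375, 555 and 539 at day 0.625, 544 and 585 at day 0.75, and 415 and 363 at day 0.916. At day 0.75 over day 0.625 the log2 change was 0.05 ± 0.12 for DPE2, without a call, and -0.44 ± 0.09 for DPE1 (edgeR adjusted p 0.0249). That call was lost when any 1 of the replicates compared was left out, and the difference between these genes was not tested. At day 0.625 the log2 change over day 0.375 was 1.64 ± 0.10 for DPE1 and 1.58 ± 0.12 for DPE2 (edgeR adjusted p 5.58e-07 and 2.72e-06).

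MEX1, the exporter, had the narrowest difference between any pair of time points, at 0.64 on the log2 scale. It had 66.8 and 66.6 CPM at day 0.083, 65.3 and 67.8 at day 0.25, 57.1 and 53.6 at day 0.375, 83.0 and 85.1 at day 0.625, 79.8 and 92.6 at day 0.75, and 75.0 and 71.6 at day 0.916. The lowest of its 4 high replicates, 79.8 CPM, stood close above the 75.0 CPM of replicate 1 at day 0.916. Its log2 change of day 0.625 over day 0.375 was 0.60 ± 0.09 (edgeR adjusted p 0.000394). The locus AT5G17523 matches MEX1 at 99.75% over 790 bases and held 10.2 to 18.4 CPM over the replicates, so the level of MEX1 is uncertain by reads that could fall to either.

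Taken from one time point to the next, the changes fell into a single rise and a slower decline. Between days 0.083 and 0.25 the test called 0 of the 10 genes, with 4.48% of loci higher and 3.14% lower at day 0.25. At an unadjusted p under 0.05, 4780 loci differed, DESeq2 also called 0 of the 10, and their log2 changes lay between -0.16 and 0.18. At day 0.375, 3 genes were lower than at day 0.25, namely DPE2 by -0.72 ± 0.12, DPE1 by -0.60 ± 0.10 and PWD by -0.54 ± 0.10 (log2, SE, edgeR adjusted p 0.00191, 0.00188 and 0.00424), with 8.43% of loci higher and 10.1% lower. Without the group of day 0.916, 5 genes passed there. At day 0.625, 10 of 10 were higher than at day 0.375, against 19.9% of loci higher and 21.6% lower, and the median log2 change of the 10 was 1.13 against -0.01 over all loci. At day 0.75, DPE1 alone was lower than at day 0.625, by -0.44 ± 0.09 (edgeR adjusted p 0.0249), with 2.07% of loci higher and 2.71% lower. Its call was lost without any 1 of the 4 replicates compared (adjusted p 0.0755 to 0.181).

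At day 0.916, 6 of the 10 were lower than at day 0.75, with 10.8% of loci higher and 8.28% lower. They were AMY3 by -0.62 ± 0.13, GWD1 by -0.57 ± 0.12, LSF2 by -0.55 ± 0.11, DPE2 by -0.55 ± 0.12, PWD by -0.43 ± 0.10 and DPE1 by -0.31 ± 0.09 (log2, SE, edgeR adjusted p 0.00616 to 0.0446). The other 4 had log2 changes of -0.66 for ISA3, -0.46 for SEX4, -0.40 for LSF1 and -0.24 for MEX1 (edgeR adjusted p 0.0515 to 0.088). The number called depended on the method, with 8 of the 10 lower in DESeq2, 7 under total-count scaling and 5 with RLE size factors. A fit of only these 2 groups, where the replicates of day 0.916 stand far apart, called 0 of the 10 (adjusted p 0.115 to 0.252 for the 6), and without replicate 2 of day 0.75 the test called 2. DPE1 lost its call when any 1 of 11 of the 12 replicates was left out. At day 0.083, AMY3 was lower than at day 0.916 by -0.57 ± 0.13 and DPE1 by -0.35 ± 0.10 (edgeR adjusted p 0.0179 and 0.0476), with 4.91% of loci higher and 3.59% lower, and a fit of only those 2 groups again called 0. Without either replicate of day 0.083, 0 genes passed as well.

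Set directly against each other, days 0.75 and 0.25 gave 10 of 10 genes higher at day 0.75, against 21.5% of loci higher and 23.9% lower. The log2 change was largest for AMY3, at 1.36 ± 0.13, then DPE2 at 0.92 ± 0.12, ISA3 at 0.88 ± 0.22, LSF2 at 0.67 ± 0.11 and SEX4 at 0.62 ± 0.15 (SE, edgeR adjusted p 1.3e-05 to 0.00854). It was 0.61 ± 0.12 for GWD1, 0.61 ± 0.10 for DPE1, 0.59 ± 0.10 for PWD, 0.53 ± 0.15 for LSF1 and 0.36 ± 0.09 for MEX1 (edgeR adjusted p 0.000442 to 0.0137). The calls of SEX4, LSF1, ISA3 and MEX1 were each lost without 1 of the replicates compared (adjusted p 0.0502 to 0.114). Scaling to total counts moved the median of all loci in this comparison to 0.23 and the share of higher calls to 66.6%, from 47.3% here, and still called 10 of 10 higher. That share became 28.5% under total-count scaling, against 58.8% here, for day 0.25 over 0.083, where the median moved to -0.13. It became 61.2% against 45.4% for day 0.375 over 0.25, 60.6% against 43.3% for day 0.75 over 0.625 and 47.2% against 57.8% for day 0.083 over 0.916.

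The growth light groups compare plants kept at 4 light levels and harvested under one day label. At light 700, 7 of the 10 genes were higher than at light 100 and 0 were lower, against 19.7% of loci higher and 20.3% lower in edgeR's test. The changes fell into 3 sizes: more than 1.5 on the log2 scale for ISA3, SEX4 and DPE2, between 0.35 and 0.56 for GWD1, MEX1, LSF2 and PWD, and no call for LSF1, DPE1 and AMY3. At light 450, the same 7 genes were higher and 0 lower (21.4% and 22.3% of loci). At light 250, 7 were higher and 0 lower (14.2% and 14.4%), with LSF1 in the place of PWD, which had a log2 change of 0.27 (adjusted p 0.0556) and passed in DESeq2 (adjusted p 0.019). For 8 of the 10, all but AMY3 and DPE1, every replicate at light 250, 450 and 700 lay above both replicates at light 100, as it did for 25.2% of loci.

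**Figure D3:**
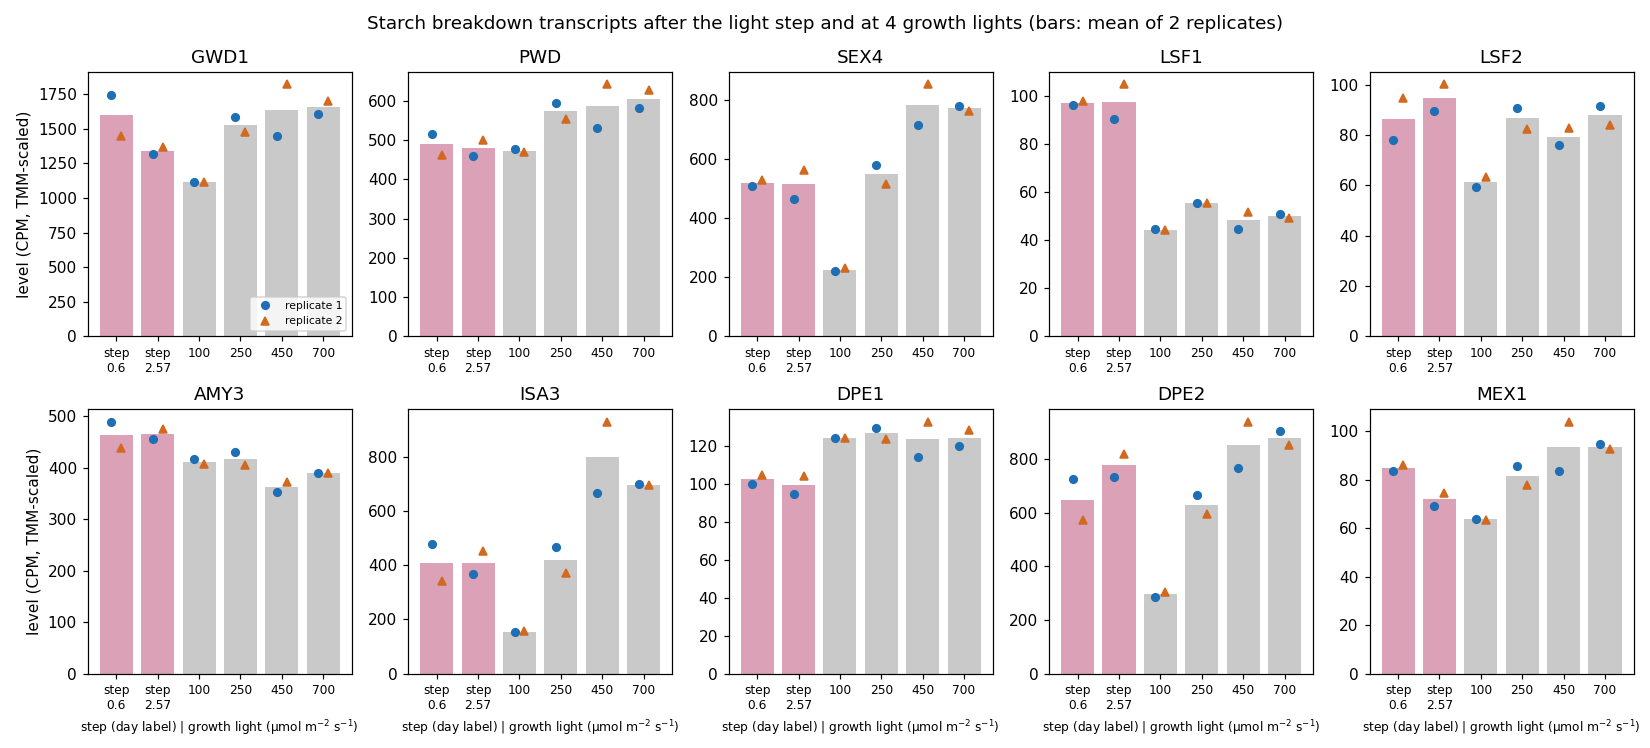
Level of each of the 10 genes in CPM (y axis, from 0) in the step groups (pink) and at the 4 growth lights (grey), with bars for the mean and points for the 2 replicates. Bars for ISA3, SEX4 and DPE2 climb steeply between light 100 and light 450, those of AMY3 and DPE1 stay level, and LSF1 is highest after the step.

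ISA3, which removes branches from the glucan, had 154 and 156 CPM at light 100, 468 and 371 at light 250, 669 and 931 at light 450, with 703 and 696 at light 700. All 6 replicates at the higher lights had at least 371 CPM, and the pair at light 450 spread widest. Its level at light 700 was 4.48-fold that at light 100, a log2 change of 2.16 ± 0.15 (SE, n = 2 each, edgeR adjusted p 7.15e-07). The log2 change from light 100 was 1.43 ± 0.14 at light 250 and 2.35 ± 0.15 at light 450 (edgeR adjusted p 3.11e-05 and 3.53e-07).

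SEX4, the phosphatase, had 219.6 and 229 CPM at light 100, 579.7 and 514 at light 250, 715 and 852 at light 450, with 778 and 763 at light 700. Light 250 stood between light 100 and the higher lights with no overlap, while light 450 and light 700 overlapped. The log2 change from light 100 was 1.28 ± 0.10 at light 250, 1.79 ± 0.10 at light 450 and 1.77 ± 0.10 at light 700 (edgeR adjusted p 6.66e-06, 2.05e-07 and 2.56e-07). DPE2, the cytosolic enzyme of maltose use, had 287 and 305 CPM at light 100, 668 and 595 at light 250, 768 and 940.1 at light 450, with 905 and 853 at light 700. Here too light 250 lay between light 100 and the higher lights, and light 450 and light 700 overlapped, with log2 changes from light 100 of 1.09 ± 0.11 at light 250, 1.52 ± 0.11 at light 450 and 1.56 ± 0.11 at light 700 (edgeR adjusted p 2.58e-05, 8.16e-07 and 8.17e-07).

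GWD1 had 1119 and 1116 CPM at light 100, 1585 and 1478 at light 250, 1448 and 1822 at light 450, with 1611 and 1700.6 at light 700. MEX1 had 63.8 and 63.5 CPM at light 100, 85.8 and 77.8 at light 250, 83.6 and 104 at light 450, with 94.7 and 92.7 at light 700. In both genes light 450 overlapped light 250 and light 700, and all 3 lay above light 100. LSF2 had 59.5 and 63.3 CPM at light 100, 90.8 and 82.6 at light 250, 76.0 and 82.7 at light 450, with 91.8 and 84.3 at light 700. PWD had 477 and 469 CPM at light 100, 594 and 553 at light 250, 532 and 642 at light 450, with 582 and 629 at light 700. The log2 change of light 700 over light 100 was 0.56 ± 0.11 for GWD1, 0.55 ± 0.09 for MEX1, 0.51 ± 0.08 for LSF2 and 0.35 ± 0.10 for PWD (SE, n = 2 each, edgeR adjusted p 0.00167, 0.000621, 0.000301 and 0.014). PWD lost its call at light 700 without either replicate of light 100 or without replicate 2 of light 700 (adjusted p 0.0615 to 0.118), and its call at light 450 was lost in the same way (adjusted p 0.0886 to 0.113).

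LSF1 had 44.6 and 44.3 CPM at light 100, 55.5 and 55.4 at light 250, 44.8 and 51.7 at light 450, with 51.1 and 49.3 at light 700. Its log2 change from light 100 was 0.32 ± 0.08 at light 250 (edgeR adjusted p 0.00989), 0.11 ± 0.08 at light 450 and 0.17 ± 0.08 at light 700, and the last 2 did not pass. AMY3 had 417 and 407 CPM at light 100, 431 and 405 at light 250, 353 and 372 at light 450, with 391 and 389 at light 700. DPE1 had 124 CPM in both replicates at light 100, 129 and 124 at light 250, 114 and 133 at light 450, with 119.7 and 128 at light 700. The replicates of DPE1 at light 450 spanned those of every other light. At light 700 the log2 change over light 100 was -0.09 ± 0.08 for AMY3 and -0.01 ± 0.08 for DPE1, and that of light 450 was -0.19 ± 0.08 and -0.02 ± 0.08 (edgeR adjusted p 0.0596 to 0.95). DESeq2 called AMY3 lower at light 450 (adjusted p 0.0397).

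At light 250, GWD1, LSF1 and MEX1 each lost their call when either replicate of light 100, or replicate 1 of light 250, was left out, and 4 genes then passed. LSF1 also lost it without replicate 2 of light 250 (adjusted p 0.054). Of the 2 root markers, PYK10 had 24.5 and 12.7 CPM at light 100, 2.71 and 3.99 at light 250, 4.01 and 1.13 at light 450, with 2.62 and 1.87 at light 700, and TIP2;3 had at most 0.0863 CPM in any of these replicates. The part of root RNA in the growth light results was not tested. Under total-count scaling the median of all loci moved to 0.19 at light 700 and 0.24 at light 450, and the share of higher calls was 73.2% against 49.2% here at light 700, 74.4% against 49.0% at light 450 and 65.4% against 49.6% at light 250. LSF1 passed at light 450 and 700 under that scaling, with log2 changes of 0.35 and 0.37, and AMY3 and DPE1 turned positive without a call.

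**Figure D4:**
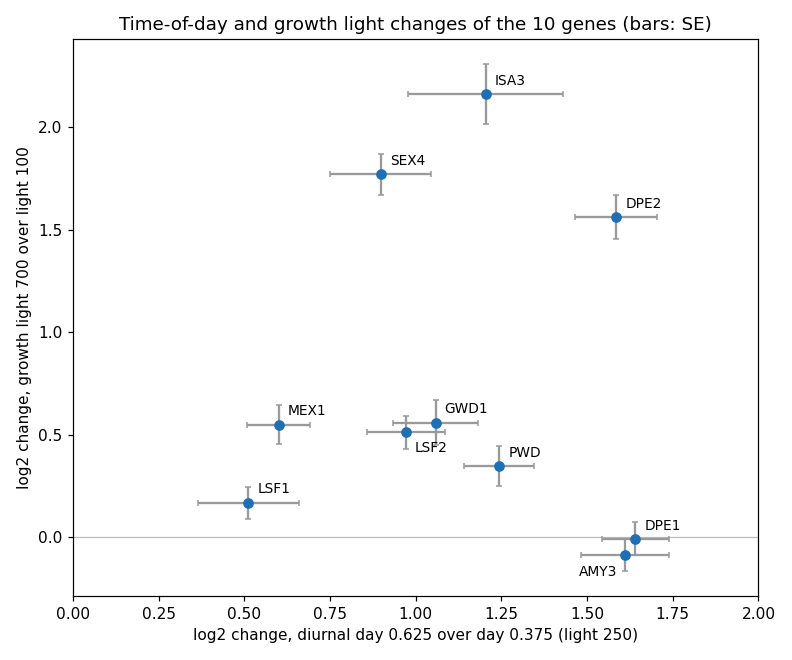
Log2 change of light 700 over light 100 (y axis) against log2 change of diurnal day 0.625 over day 0.375 at light 250 (x axis) for the 10 genes, with bars for the SE. DPE2 is high on both axes, DPE1 and AMY3 lie farthest right and near 0 for light, and ISA3 and SEX4 lie highest for light.

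The order of the genes by size of change differed between day 0.625 over 0.375 and light 700 over 100. DPE1 and AMY3 had the largest log2 changes in the first of these, 1.64 and 1.61, and the smallest in size in the other, at -0.01 and -0.09. DPE2 had large changes with both, 1.58 by day and 1.56 by light, and LSF1 small ones with both, 0.51 and 0.17. The difference between the genes in either response was not tested.

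The step groups ask what happened in plants that were moved from light 100 to light 700, with plants kept at light 100 as the start and plants kept at light 700 for comparison. These comparisons share the light 100 and light 700 replicates with each other and with the growth light comparison. At step day 0.6, 7 of the 10 genes were higher than at light 100 and 1 was lower, against 25.0% of loci higher and 24.0% lower. At step day 2.57, 5 were higher and 1 lower, against 22.2% and 19.5% of loci. ISA3, SEX4, DPE2, LSF1 and LSF2 were higher at both, GWD1 and MEX1 passed at day 0.6, and DPE1 was the lower one at both.

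ISA3 had 478 and 342 CPM at step day 0.6 and 367 and 454 at step day 2.57, against 703 and 696 CPM at light 700 and 154 and 156 at light 100. SEX4 had 509 and 528 CPM at step day 0.6 and 465 and 561 at step day 2.57, against 778 and 763 CPM at light 700 and 219.6 and 229 at light 100. Both genes stood between the light 100 and light 700 plants, with no overlap on either side. The log2 change over light 100 was 1.40 ± 0.15 for ISA3 and 1.21 ± 0.11 for SEX4 at step day 0.6, and 1.39 ± 0.15 and 1.18 ± 0.11 at step day 2.57 (SE, n = 2 each, edgeR adjusted p 1.88e-06 to 1.28e-05). Over light 700 it was -0.75 ± 0.15 for ISA3 and -0.55 ± 0.11 for SEX4 at step day 0.6, and -0.76 ± 0.15 and -0.58 ± 0.11 at step day 2.57 (edgeR adjusted p 0.000809 to 0.00124).

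DPE2 had 725 and 574 CPM at step day 0.6 and 736 and 820.2 at step day 2.57, against 905 and 853 CPM at light 700 and 287 and 305 at light 100. Every step replicate lay below both of light 700 and above both of light 100. Its log2 change over light 100 was 1.14 ± 0.12 at step day 0.6 and 1.38 ± 0.12 at step day 2.57 (edgeR adjusted p 9.69e-06 and 2.45e-06). Over light 700 it was -0.41 ± 0.12 at step day 0.6 (edgeR adjusted p 0.0125) and -0.17 ± 0.12, without a call, at step day 2.57. The call at step day 0.6 was lost without replicate 1 of light 700 (adjusted p 0.0746) and without replicate 2 of step day 0.6 (adjusted p 0.0537).

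LSF1 was the one gene that passed as higher at both step days over both light 700 and light 100. It had 96.4 and 97.9 CPM at step day 0.6 and 90.6 and 105 at step day 2.57, against 51.1 and 49.3 CPM at light 700 and 44.6 and 44.3 at light 100. All 4 step replicates lay above every one of the other 20 replicates of the series, of which the highest had 55.5 CPM. Its log2 change was 1.13 ± 0.10 over light 100 at both step days (edgeR adjusted p 1.66e-06 and 2.11e-06), and 0.97 ± 0.10 over light 700 at both (edgeR adjusted p 5.93e-06 and 1.02e-05). Its neighbour CA1 had 4477 and 4328 CPM at step day 0.6 and 5451 and 5901 at step day 2.57, against 2236 and 1899 CPM at light 700 and 4046 and 3846 at light 100. The part of CA1 reads in the level of LSF1 was not tested.

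AMY3 had 489 and 438 CPM at step day 0.6 and 455 and 475 at step day 2.57, against 391 and 389 CPM at light 700 and 417 and 407 at light 100. Its 4 step replicates also lay above all other 20, by a margin of 438 over 433 CPM, and LSF1 and AMY3 were the 2 of 10 with this pattern, which 7.9% of loci had. The log2 change of AMY3 over light 700 was 0.27 ± 0.10 at step day 0.6 and 0.26 ± 0.10 at step day 2.57 (edgeR adjusted p 0.0336 and 0.0439), and over light 100 it was 0.17 ± 0.10 at both without a call. Under total-count scaling the changes over light 700 were 0.04 and -0.0028 with no call. They were also lost without any 1 replicate of light 100 or light 700 (adjusted p 0.0647 to 0.232).

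DPE1 had 100.1 and 104 CPM at step day 0.6 and 94.5 and 104 at step day 2.57, against 119.7 and 128 CPM at light 700 and 124 in both replicates at light 100. All 4 step replicates were below all 4 of the growth light groups. Its log2 change over light 100 was -0.27 ± 0.10 at step day 0.6 and -0.33 ± 0.10 at step day 2.57, and over light 700 it was -0.26 ± 0.10 and -0.31 ± 0.10 (edgeR adjusted p 0.0318, 0.0153, 0.0396 and 0.0185). Each of these 4 calls was lost when only 1 replicate was left out, and this held for at least 2 of the 8 replicates fitted. Those of step day 0.6 were also lost in a fit of only the 2 groups compared (edgeR adjusted p 0.0872 and 0.0841).

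GWD1 had 1746 and 1452 CPM at step day 0.6 and 1315 and 1372.5 at step day 2.57, against 1611 and 1700.6 CPM at light 700 and 1119 and 1116 at light 100. MEX1 had 83.5 and 86.1 CPM at step day 0.6 and 69.3 and 74.6 at step day 2.57, against 94.7 and 92.7 CPM at light 700 and 63.8 and 63.5 at light 100. At step day 2.57 both genes lay between the light 100 and light 700 plants. Over light 100, GWD1 changed by 0.52 ± 0.11 and MEX1 by 0.42 ± 0.09 on the log2 scale at step day 0.6 (edgeR adjusted p 0.00192 and 0.00228), and by 0.26 ± 0.11 and 0.17 ± 0.09 without a call at step day 2.57. Over light 700, MEX1 was lower by -0.37 ± 0.09 and GWD1 by -0.29 ± 0.11 at step day 2.57 (edgeR adjusted p 0.00516 and 0.0468), and the call of GWD1 was lost without any 1 of 6 of the 8 replicates.

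LSF2 had 78.0 and 95.0 CPM at step day 0.6 and 89.7 and 100.3 at step day 2.57, against 91.8 and 84.3 CPM at light 700 and 59.5 and 63.3 at light 100. PWD had 516 and 463 CPM at step day 0.6 and 459 and 501 at step day 2.57, against 582 and 629 CPM at light 700 and 477 and 469 at light 100. LSF2 overlapped the light 700 plants, and PWD overlapped the light 100 plants. LSF2 was higher than at light 100 by 0.50 ± 0.11 and 0.62 ± 0.11 at the step days, and PWD lower than at light 700 by -0.28 ± 0.10 and -0.33 ± 0.10 (log2, SE, edgeR adjusted p 0.00298, 0.000823, 0.0344 and 0.0208). PWD lost its call at step day 0.6 without any 1 of 5 of the 8 replicates and at step day 2.57 without either of 2.

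Counted over the 10 genes, step day 0.6 had 2 higher and 5 lower than light 700, against 26.8% of loci higher and 26.6% lower, and step day 2.57 had 2 higher and 6 lower, against 24.1% and 22.2%. A fit of step day 0.6 with light 700 alone called 4 of the 7, and 3 passed without replicate 1 of light 700. At step day 2.57, 4 passed without replicate 2 of light 700 or without replicate 1 of the step. Under total-count scaling the median of all loci over light 700 moved to -0.25 at step day 0.6 and -0.27 at step day 2.57, and 32.5% and 27.7% of calls were higher, against 50.2% and 52.2% here. Of 8 clock genes, 2 passed at step day 0.6 over light 100, where 49.0% of loci did, and 7 at step day 2.57, where 41.7% of loci did. Of those at step day 2.57, 3 were higher and 4 lower. LUX, an evening clock gene, averaged 15.2 CPM at step day 2.57 against 35.9 CPM at light 100, and CCA1 averaged 21.7 against 5.15 CPM. Over light 700, 6 of the 8 clock genes passed at step day 0.6 and 6 at step day 2.57, where 53.4% and 46.3% of loci did. The root marker PYK10 had 37.5 and 24.6 CPM at step day 0.6 and 26.0 and 9.20 at step day 2.57, against 2.62 and 1.87 CPM at light 700 and 24.5 and 12.7 at light 100. The other root marker, TIP2;3, had at most 0.0863 CPM in any replicate. The part of clock genes and of root RNA in these changes was not tested.

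Between the step days the test called 0 of the 10 genes, with 3.29% of loci higher and 4.65% lower at day 2.57, 1586 of 19998 in all. At an unadjusted p under 0.05, 4782 loci differed, and DESeq2 also called 0 of the 10. The log2 change of day 2.57 over day 0.6 ran from -0.27 ± 0.17 for GWD1 to 0.24 ± 0.17 for DPE2 (SE, n = 2 each). Without replicate 1 of step day 0.6, DPE2 passed with a log2 change of 0.43 (adjusted p 0.0389).

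Light 250 at day 0.583 and diurnal day 0.625 at light 250 share the light level and have neighbouring day labels. In edgeR's test 0 of the 10 genes and 97 of 21239 loci (0.457%) differed, 1757 loci had an unadjusted p under 0.05, and DESeq2 called 0 of the 10 and 237 loci. Of the 8 clock genes, 4 differed. Log2 changes of growth light 250 over day 0.625 lay between -0.21 for PWD and 0.21 for DPE2. Of those calls 46.4% were higher, and 26.9% under total-count scaling.

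**Figure D5:**
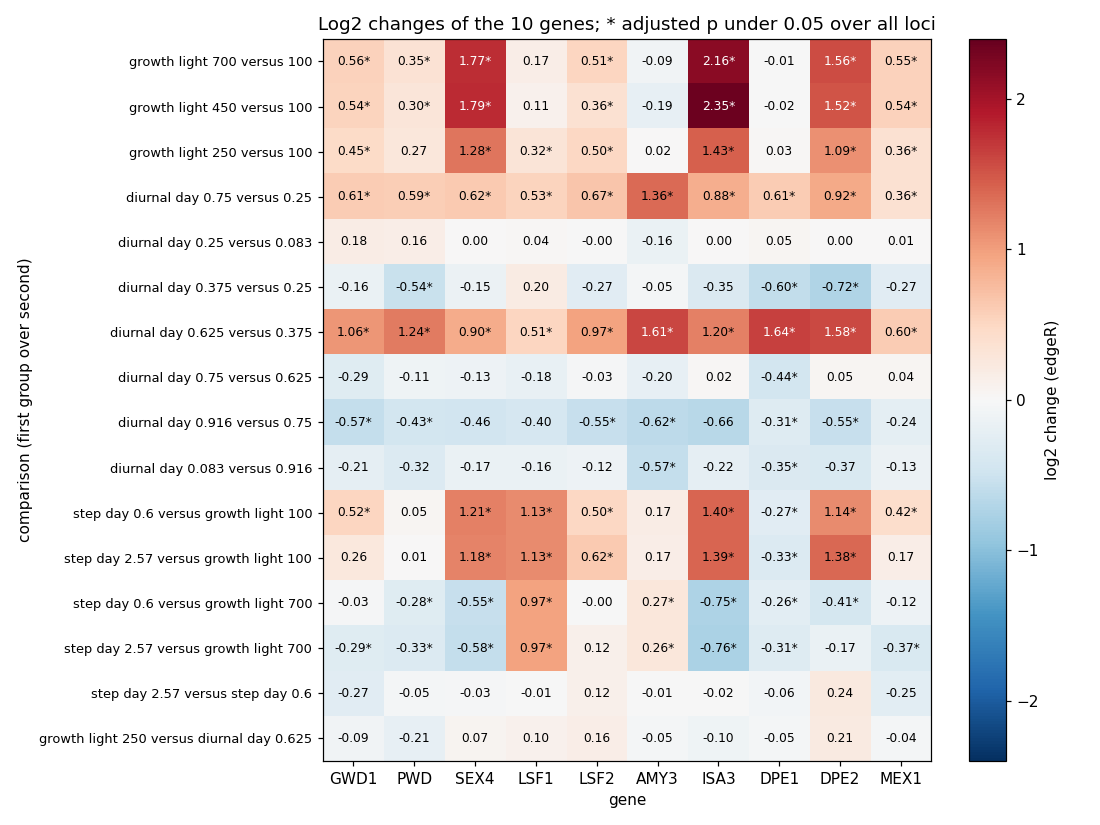
Log2 change of the 10 genes (columns) in each comparison (rows, the group named first over the one named after it), coloured from blue (lower) to red (higher), with a star where edgeR's adjusted p was under 0.05. The row of day 0.625 over 0.375 is red throughout, ISA3, SEX4 and DPE2 are red over light 100, and LSF1 and AMY3 carry a red star over light 700 after the step, with log2 changes of 0.97 for LSF1 and 0.27 and 0.26 for AMY3.

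Across the 12 group means, Pearson's r between each gene and the mean of the other 9 ran from 0.65 for LSF1 to 0.97 for LSF2, on log2(CPM + 1). Over the 45 pairs of genes r ran from 0.40 for PWD with LSF1 to 0.99 for SEX4 with ISA3, with a median of 0.81. Over the 6 diurnal means alone the median was 0.95, and the lowest 0.69. The points share libraries and groups, so these values are descriptions. Among 13261 loci with a mean log2 CPM of at least 3, 137 outside the 10 genes had an r of at least 0.9 with the mean of the 10. The 5 most like that mean were PHS2 (AT3G46970, r = 0.98), a cytosolic glucan phosphorylase, then AGAL2 (AT5G08370, 0.97), AT5G19540 (0.97), MDAR4 (AT3G27820, 0.97) and AT5G66420 (0.97). PHS2 averaged 376 CPM at day 0.375, its lowest group, and 1753 CPM at light 700, its highest.

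The other 13 starch breakdown genes listed, among them beta-amylases, glucan phosphorylases and the plastid glucose transporter, did not move as one through the day. At day 0.75, 3 of 13 were higher and 6 lower than at day 0.25, against 21.5% of loci higher and 23.9% lower. At day 0.625, 4 were higher and 5 lower than at day 0.375, against 19.9% and 21.6% of loci. The largest changes of day 0.75 over day 0.25 were those of BAM9 at -4.87, BAM3 at -2.30 and AMY2 at -1.55 (log2, edgeR adjusted p 1.78e-07, 2.1e-06 and 1.09e-06). BAM3, the main beta-amylase that releases maltose from leaf starch, had 1644 and 1816 CPM at day 0.75, against 7785 and 9117 CPM at day 0.25, the reverse of the 10 genes. With light, 8 of 13 were higher and 2 lower at light 700 than at light 100, against 19.7% and 20.3% of loci. The largest changes were those of the alpha-amylase AMY1 at 1.92, GWD2, a relative of GWD1, at 1.40 and BAM3 at 1.38 (log2, edgeR adjusted p 2.17e-05, 1.98e-06 and 3.43e-06). At step day 0.6, 5 were higher and 3 lower than at light 100, against 25.0% and 24.0% of loci. BAM3 at 2.07, BAM9 at -2.01 and pGlcT, the glucose transporter, at -1.56 changed most (log2, edgeR adjusted p 2.12e-08, 1.41e-05 and 4.4e-07).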

How the data were processed

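Leaf RNA libraries of 24 replicates were each sequenced on 2 lanes. Read counts per transcript were deposited by the authors, per the file headers, for 41671 transcripts, with no normalization; Bowtie2 and TAIR10 are named in the submitters' processing notes, and the counting tool and its use of strand are not given in the sources used here. Values in the table of the growth light groups are repeated 2 times, and 12 columns that stand in more than 1 table are identical. Low counts were mostly even (70.3% of those between 1 and 10), so a fit on halved counts was among the alternatives. For step day 2.57, 2 column names differ only in a capital letter, and each was assigned to the library it matched (variance ratio 2.00 and 1.98, against 9.18 and 9.14 to the other).

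Lanes and transcripts were summed per locus. The main test was edgeR 4.0.16's quasi-likelihood F test (R 4.3.3, limma 3.58.1) with TMM scaling and filterByExpr, fitted over all loci within each set of groups, with p-values adjusted by Benjamini-Hochberg across every locus of that fit and called under 0.05. The SE of a log2 change is its size divided by the square root of F. Levels are CPM under 1 TMM scaling of the 24 replicates, and levels per length are CPM per kilobase of transcript. Alternatives were RLE and total-count scaling, DESeq2 1.42.0, other filters, a replicate block, only the groups compared, other sets of groups and leaving out each replicate. The scripts were tested on simulated data. Sequences and gene models came from RefSeq TAIR10.1, near-identical copies from BLAST 2.17.0 (at least 85% over 100 bases), and figures from matplotlib 3.10.9. Names matched 32835 of 33602 loci.

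The rule for the 10 genes used gene names and no measured value. Earlier results of these data were nevertheless known when the genes, gene lists, comparisons and alternatives were chosen. The named genes are the 10 themselves, at most 3 genes of the other starch list per comparison by size of change, and the 5 loci most like their mean.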

Additional observations from a re-analysis of the deposited data

How the results depend on the processing

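The 10 genes gave 132 log2 changes, refitted under alternatives that gave 2434 values: 2256 kept their direction and their side of the threshold, 127 lost their call, 17 gained one and 34 changed sign. All 132 kept both with halved counts and with at least 10 counts required in every replicate. The values of the test across the 6 diurnal groups are widest differences between time points, so for those 10 the sign could not change. Changes between neighbouring time points without a call in the main fit were not among the 132, so they could not gain one here. The cause of a changed value was not tested. The replicate numbers are labels of pools combined at random, and the correlation of replicate differences between the groups compared ran from -0.675 to 0.298. The replicate block left 127 of 132 as they were and ended the calls of DPE1 at day 0.916 over 0.75 (adjusted p 0.0684) and at day 0.083 over 0.916 (0.0764, leaving 1 gene of 2), of DPE1 at step day 0.6 over light 700 (0.0506), and of GWD1 and AMY3 at step day 2.57 over light 700 (0.0606 and 0.0595). Using the second lane alone for step day 2.57, chosen after seeing the data, left 48 and ended 2.

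Total-count scaling turned the log2 changes of AMY3 and DPE1 to 0.11 and 0.19 at light 700 and to 0.045 and 0.22 at light 450 over light 100. It turned PWD to -0.045 at step day 2.57 over light 100, and LSF2 and AMY3 to -0.15 and -0.0028 at step day 2.57 over light 700. LSF2 at step day 0.6 over light 700 became 0.0096 under both RLE size factors and DESeq2. A fit of only the 2 groups compared gave DPE1 0.00094 at light 700, and called 2885 loci instead of 1598 at day 0.25 over 0.083, 769 instead of 3997 loci and 0 instead of 6 genes at day 0.916 over 0.75, 258 instead of 1781 loci and 0 instead of 2 genes at day 0.083 over 0.916, 4 instead of 7 genes at step day 0.6 over light 700, and 707 instead of 97 loci at growth light 250 over day 0.625. Without the group of day 0.916, 2699 loci passed at day 0.25 over 0.083, 5 instead of 3 genes at day 0.375 over 0.25, and 1788 instead of 1002 loci at day 0.75 over 0.625. DESeq2 called 1537 loci at day 0.75 over 0.625, 4 genes at day 0.083 over 0.916 and 237 loci at growth light 250 over day 0.625. With no filter beyond 1 read, 1 gene passed at day 0.083 over 0.916, 201 loci at growth light 250 over day 0.625, and 2523 instead of 1586 loci at step day 2.57 over 0.6. With the spread shared by 4 groups, 3137 loci passed there.

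Leaving out 1 replicate makes a group 1 sample, which is assumed to vary like the other groups. The log2 change of DPE1 then ran from -0.058 to 0.042 at light 700, -0.12 to 0.077 at light 450 and -0.0068 to 0.064 at light 250, and that of AMY3 from -0.027 to 0.069 at light 250, where 3433 to 7003 loci and 4 to 8 genes passed. Loci and genes past the threshold ran from 267 to 2674 loci at day 0.25 over 0.083, 1761 to 5115 and 3 to 5 at day 0.375 over 0.25, 224 to 1777 and 0 to 1 at day 0.75 over 0.625, 2292 to 4248 and 2 to 7 at day 0.916 over 0.75, and 552 to 3233 and 0 to 2 at day 0.083 over 0.916. After the step, PWD ran from -0.024 to 0.13 at day 0.6 and -0.046 to 0.066 at day 2.57 over light 100, and over light 700 3 to 7 genes passed at day 0.6, with GWD1 from -0.18 to 0.10 and LSF2 from -0.15 to 0.11, and 4 to 8 genes at day 2.57. Between the step days 844 to 4006 loci and 0 to 1 genes passed, and the change ran from -0.12 to 0.037 for PWD, -0.16 to 0.087 for SEX4, -0.11 to 0.083 for LSF1, -0.013 to 0.26 for LSF2, -0.092 to 0.074 for AMY3 and -0.24 to 0.25 for ISA3. For growth light 250 over day 0.625, 9 to 199 loci passed, and the change ran from -0.019 to 0.16 for SEX4, -0.28 to 0.054 for ISA3 and -0.11 to 0.032 for MEX1. Each gene had at least 814 counts in every replicate, and no alternative here measured the effect of depth.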
